A study of Mus musculus with 4 samples.

Results

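Transcripts of 35 genes of the Bcl2 family, the caspases and their regulators were followed across 4 libraries of mouse CD4+ T cells. The genes were listed by name as members of these families, with earlier results of these data known, and all 35 were found once each among the 34745 genes of the table. Of these, 32 had at least 10 counts in some library. Bok, Hrk and Casp12 stayed under 10 counts in all 4 libraries and entered no comparison. The cells came from the spleens of wild-type C57BL/6 mice, and each group was 1 library, so no difference has a replicate check. The naive library was made from CD4+ T cells taken straight from the spleen. Th0 cells were naive cells kept for 3 days with antibodies to CD3 and CD28, which activate the T cell receptor and its co-receptor. The other two libraries, Th17 and Treg, were harvested on day 3 of their own differentiation cultures. The sources used here do not give the cytokines added, the age of the mice or the number of animals behind each library.

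Apoptosis through mitochondria is set by the balance within the Bcl2 family. Anti-apoptotic members hold the pore-forming proteins Bax and Bak in check, and BH3-only proteins release that brake, after which cytochrome c leaves the mitochondria, binds Apaf1 and activates caspase 9. Death receptors of the TNF receptor family start a separate route through Fadd and caspase 8, which Cflar restrains. Where caspase 8 is blocked, Ripk1, Ripk3 and Mlkl can carry out necroptosis. In CD4 T cells the Bcl2 family is best known for the survival of resting cells and for the loss of activated cells when a response ends.

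Levels are given as CPM, counts scaled to the TMM-adjusted library size. Levels of different genes are compared only as FPKM, the authors' values per kilobase of gene length. The size rule behind the word called asks for a ratio of CPM + 1 of at least 2-fold and for a 95% counting interval of the count ratio that leaves out equality. Folds are plain ratios of CPM, with that interval in brackets. The intervals cover counting error only, and reads without molecular identifiers are not independent molecules. In bulk RNA, fewer cells expressing a gene and less RNA per cell cannot be told apart. The CD4 T cell genes Cd3d, Cd3e, Cd3g, Cd4, Cd5 and Trac summed to between 2208 and 2771 CPM in the 4 libraries. The table total of a library was 10256627 to 12414372 counts. Il17a had 90.4 CPM in Th17, 14.7 in Treg, 0.245 in naive and 0 counts in Th0. Foxp3, the defining gene of Treg cells, had 51.5 CPM in Treg, 11.3 in Th17 and 1.37 in Th0, but 129 in the library labelled naive. The naive library also held transcripts of other cells, with 10 macrophage and monocyte markers summing to 5033 CPM against 10.99 to 45.3 in the cultured libraries. For 8 neutrophil markers the sums were 1618 against 1.37 to 4.80 CPM, and for 9 B cell markers 968 against 20.8 to 94.0 CPM. No marker of these 3 lists was at 0 in naive, while 2 to 3 neutrophil markers were at 0 in each cultured library. Sums for 7 dendritic cell markers were 341 CPM in naive and 9.04 to 27.9 CPM in the cultures, and for 6 erythroid and platelet markers 138 and 6.52 to 9.53 CPM. Every marker of these 5 lists was called lower in Th0 than in naive, but 8 of the 10 macrophage, 8 of the 8 neutrophil, 1 of the 9 B cell, 6 of the 7 dendritic cell and 5 of the 6 erythroid and platelet markers reached 10 counts only in naive of this pair and could be called in no other direction. The 6 CD8 T and NK cell markers summed to 252 CPM in Th0 against 80.9 to 117 CPM elsewhere, and without Gzmb, a granzyme gene that activated T cells also express, to 106 CPM in Th0, 100.4 in naive, 51.7 in Th17 and 92.2 in Treg. Of these 6, Gzmb was called higher in Th0 than in naive, and Klrd1 and Ncr1 lower. Ncr1 reached 10 counts only in naive of this pair and could be called only lower. Transcripts of other cells differed between the cultures too. Of the 9 B cell markers, 7 were called lower in Treg than in Th0, and 7 higher in Th17 than in Treg. Of the 7 lower, 2 reached 10 counts only in Th0 of the pair. Of the 7 higher, 2 reached 10 counts only in Th17, so these calls could go in no other direction. Over all tested genes 12.0% were called lower in Treg than in Th0 and 1.91% higher in Th17 than in Treg. Th17 over Th0 had 2 of the 9 B cell markers lower and 1 higher. Of the 10 macrophage markers, 5 were called higher in Th17 and 5 in Treg than in Th0, and none lower. In each case 4 of the 5 reached 10 counts only in the polarised culture of the pair. The part of transcripts of other cells, CD8 T and NK cells included, in any difference between libraries was not tested.

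**Figure D1:**
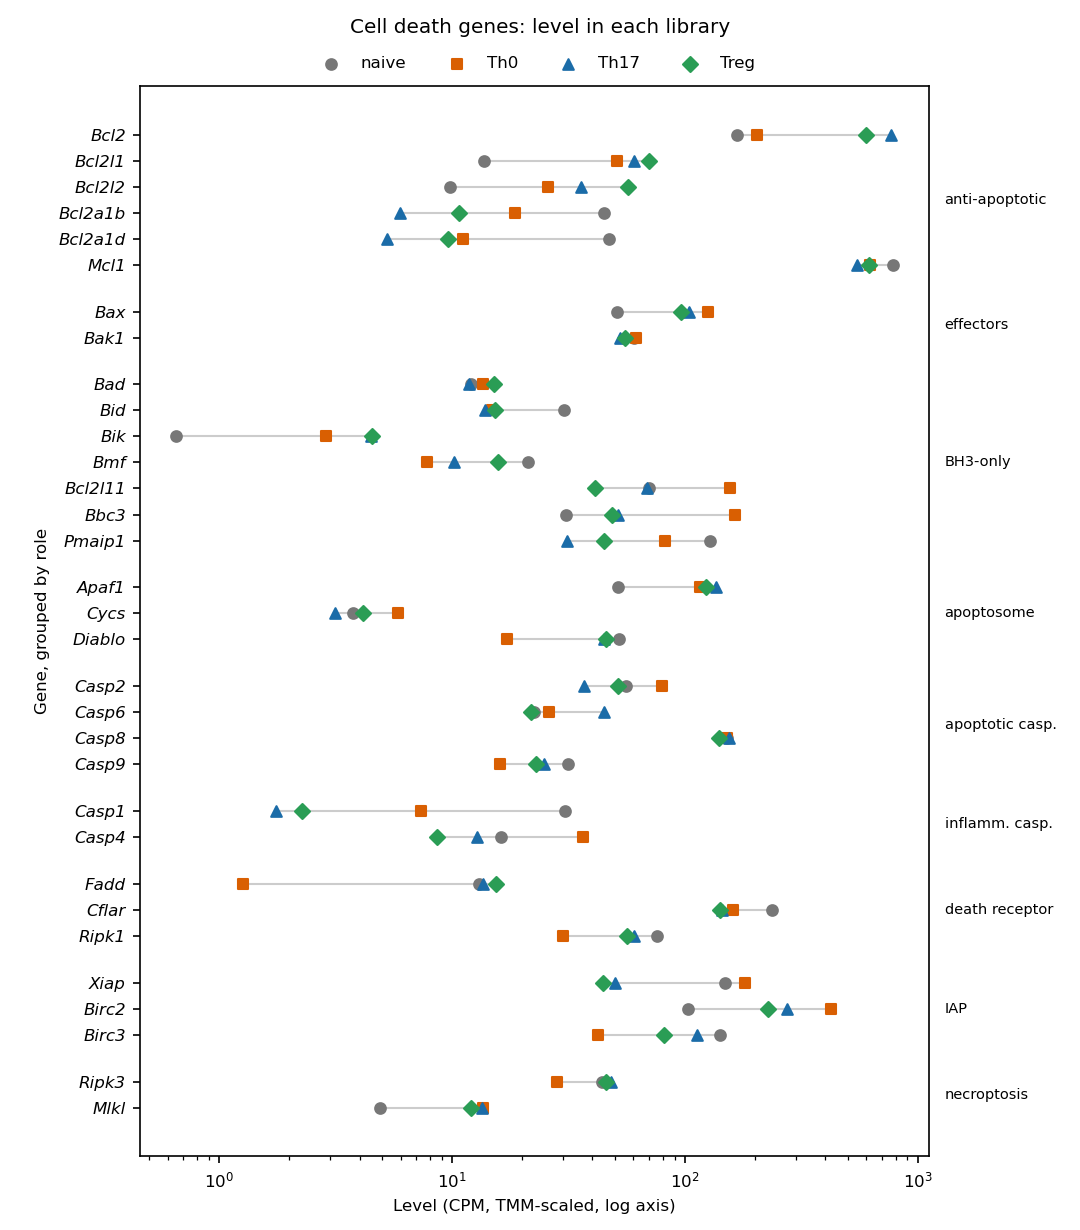
Level of the 32 cell death genes with at least 10 counts in some library, in CPM on a log axis, with 1 point per library and no error bars. Genes are grouped by role, and grey lines join the lowest and highest library. Th0 holds the highest point for Bbc3, at 163 CPM, and the lowest for Fadd, at 1.26 CPM.

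Th0 was first compared with naive cells to ask what differed after 3 days of stimulation. The BH3-only genes Bbc3 and Bcl2l11, the caspase inhibitor gene Birc2 and the survival gene Bcl2l1 were higher in Th0. Fadd, Birc3, Casp1 and both Bcl2a1 copies were lower. In this comparison 10 members of 32 were called higher and 8 lower, with a median log2 ratio of 0.09. Over all 13995 tested genes 18.5% were called higher and 27.2% lower (45.7% together), with a median of -0.13, and the members' shares were 31.3% and 25.0%. With library totals in place of TMM, 7 members were higher and 10 lower, so 41.2% of the members' calls were higher in place of 55.6%, and 29.6% in place of 40.5% over all genes. The members' median was then -0.17, against -0.38 over all genes. That scaling moved the median of all genes by -0.24 here, by 0.28 for Th17 over Th0 and by 0.31 for Treg over Th0, and upper quartile scaling moved it by -0.12, 0.13 and 0.14.

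Th17 was set against Th0, the culture with stimulation and no named differentiation condition. Bcl2, Birc3, Diablo and Fadd were called higher in Th17. Bcl2l11, Bbc3, Pmaip1, Bcl2a1b, Casp1, Casp2, Casp4 and Xiap were called lower. These 4 and 8 calls of 32 tested members, 12.5% and 25.0%, stood beside 20.1% and 12.4% (32.5% together) of all 13324 tested genes. The members' median log2 ratio was -0.12, against 0.09 over all genes. With library totals 7 members were higher and 6 lower, so 53.8% of the calls were higher in place of 33.3%, while the share over all genes went from 61.9% to 79.3%. The members' median was then 0.18 against 0.36 over all genes, and with upper quartile scaling 0.02 against 0.22.

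Treg was set against the same Th0 library, so differences that the cultures shared cannot be assigned to either condition. Bcl2, Bcl2l2, Diablo and Fadd were called higher in Treg, and Bcl2l11, Bbc3, Casp1, Casp4 and Xiap lower. Of the 32 members 12.5% were higher and 15.6% lower, beside 20.2% and 12.0% (32.2% together) of all 13138 tested genes, and the median log2 ratio was -0.13 against 0.08. With library totals 8 members were higher and 5 lower, and with upper quartile scaling 7 and 5, so 61.5% and 58.3% of the calls were higher in place of 44.4%. Over all genes these shares were 81.8% and 72.5% in place of 62.7%. The members' medians were then 0.21 and 0.02, against 0.39 and 0.22 over all genes. No member was called in opposite directions in Th17 and Treg.

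Th17 and Treg were also compared directly. Casp6 was called higher in Th17 and no member was called lower, beside 1.91% and 1.24% (3.15% together) of all 13346 tested genes. The other 31 tested members were not called, and the members' log2 ratios ran from -0.75 to 1.01. No p-value exists for any of these counts, since each group had 1 library.

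**Figure D2:**
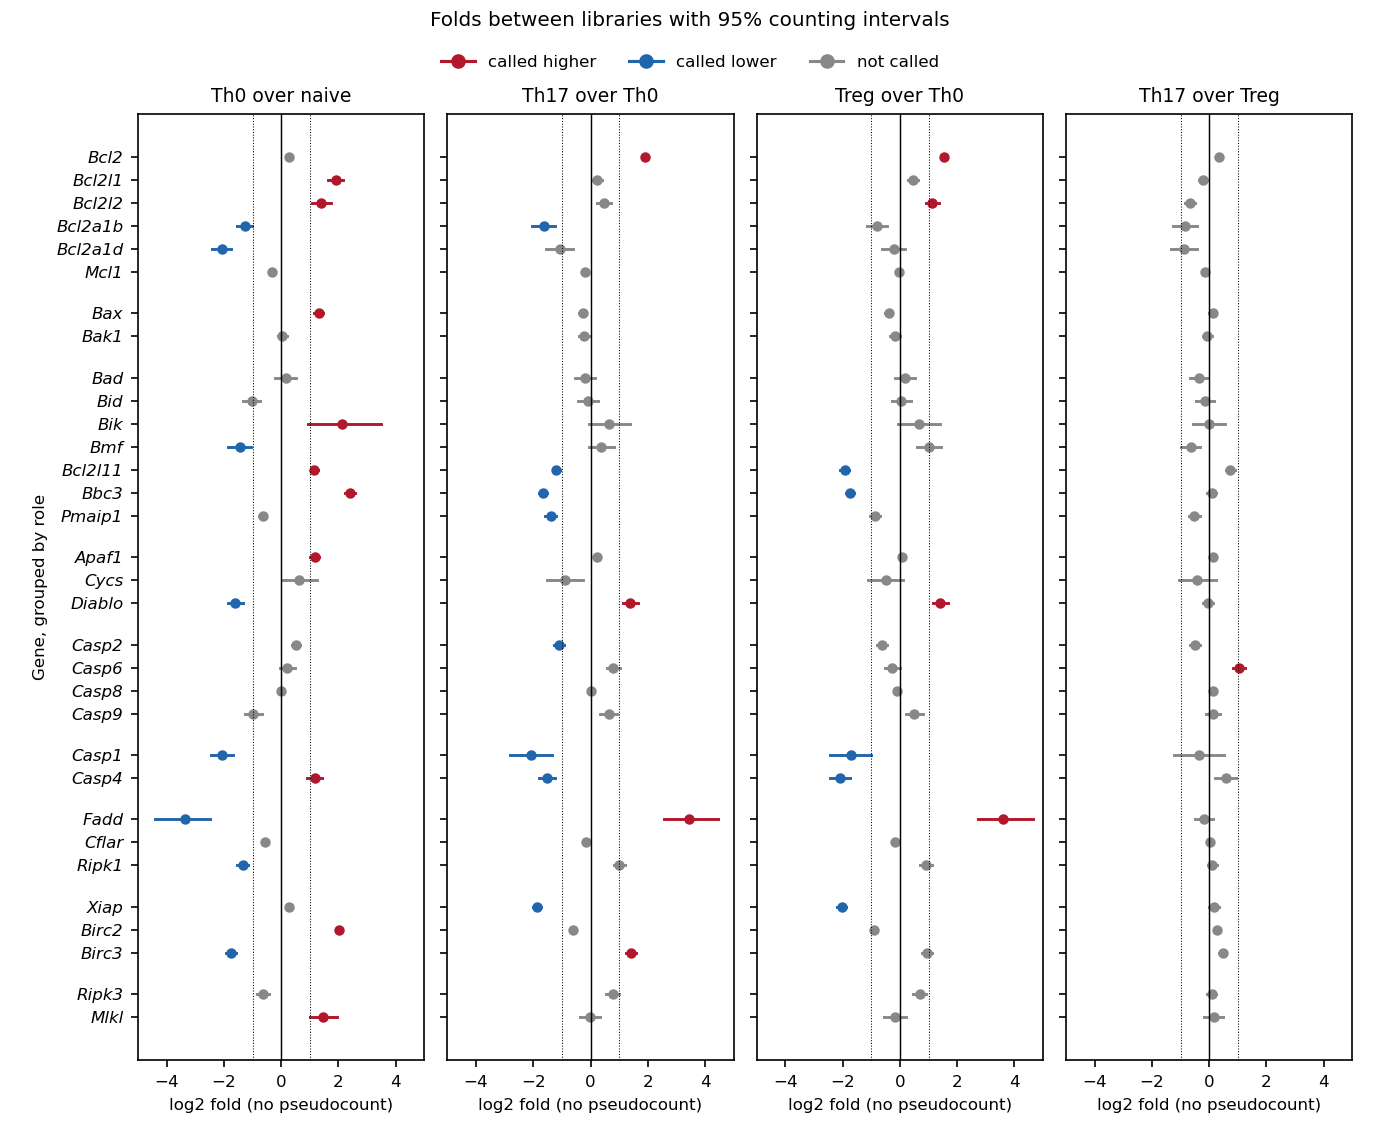
Log2 fold without pseudocount (points) and its 95% counting interval (lines) for 32 members in the 4 comparisons. Red and blue mark members called higher and lower, grey those not called, and dotted lines mark 2-fold. Fadd lies 10.3-fold lower in Th0 than in naive and 10.8-fold and 12.2-fold higher in Th17 and Treg than in Th0.

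Among the anti-apoptotic genes, Bcl2 (chromosome 1, 106538178 to 106714274, minus strand, GRCm38, protein-coding) differed most between the cultures. It had 167 CPM in naive cells, 203 in Th0 cells, 762.5 in Th17 cells and 595 in Treg cells. Th17 and Treg were high and naive and Th0 low, with Th17 3.75-fold (3.57 to 3.95) and Treg 2.93-fold (2.78 to 3.09) above Th0, both called under all 4 scalings. Naive and Th0 differed by 1.22-fold, under the size rule. Its exons overlap an antisense gene, D630008O14Rik, which had at most 1 count in any library.

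Mcl1, which encodes a short-lived anti-apoptotic protein, had the highest FPKM of the 6 genes in every library, at 199 in naive cells, 132 in Th0 cells, 144 in Th17 cells and 164 in Treg cells. In CPM it lay between 547 and 780 and was not called in any comparison. Bcl2 made up 5.16% of the summed FPKM of the 6 genes in naive cells, 9.27% in Th0 cells, 32.4% in Th17 cells and 23.9% in Treg cells, while Mcl1 held 57.9% to 71.0%. The Bcl2 share thus ran in the same order as its CPM.

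Bcl2l1, the gene of Bcl-xL, had 13.7 CPM in naive cells, 51.1 in Th0 cells, 60.05 in Th17 cells and 70.1 in Treg cells. Only naive was low, and Th0 stood 3.72-fold (3.11 to 4.47) above it. Bcl2l2, which encodes the related Bcl-w, had 9.80, 25.9, 35.7 and 56.8 CPM in the same order. It was 2.64-fold (2.11 to 3.32) higher in Th0 than in naive and 2.20-fold (1.88 to 2.57) higher in Treg than in Th0. Th17 over Th0 was 1.38-fold, under the size rule. Bcl2l2 shares exons with the same-strand gene Gm20521, which had 73 to 224 counts, so its reads may have been split.

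Bcl2a1b and Bcl2a1d encode A1, an anti-apoptotic protein induced by NF-kB in blood cells. They are copies within a cluster on chromosome 9, and the start of their coding sequences is shown to let the copies be compared base by base. The lines give coding bases 1 to 120 (GRCm38, GENCODE vM21), with capitals at the 7 positions in this stretch where the 3 copies differ, at chr9:88957051-88957170 (plus strand), chr9:89199360-89199479 (plus) and chr9:88731600-88731719 (minus).
Bcl2a1a: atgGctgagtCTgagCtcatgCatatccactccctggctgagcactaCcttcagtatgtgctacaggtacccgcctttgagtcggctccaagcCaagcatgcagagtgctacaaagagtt
Bcl2a1b: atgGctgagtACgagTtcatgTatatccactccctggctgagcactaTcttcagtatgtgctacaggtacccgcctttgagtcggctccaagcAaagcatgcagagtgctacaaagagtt
Bcl2a1d: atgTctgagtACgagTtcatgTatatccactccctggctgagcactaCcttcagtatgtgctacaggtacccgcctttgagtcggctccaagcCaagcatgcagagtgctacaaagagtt

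Bcl2a1b and Bcl2a1d differed at 3 of the printed bases and at 6 of all 516 coding bases, and their longest identical stretch was 217 bases. Reads from such a stretch cannot be assigned to 1 copy, so the split between the copies is uncertain. Bcl2a1b had 44.8 CPM in naive cells, 18.5 in Th0 cells, 5.94 in Th17 cells and 10.6 in Treg cells, and Bcl2a1d had 46.9, 11.1, 5.26 and 9.56 CPM. Both were high in naive and lowest in Th17. Bcl2a1b was called lower in Th17 than in Th0 (3.12-fold, 2.37 to 4.14), while Bcl2a1d was 2.11-fold lower (1.53 to 2.92) and, at a log2 ratio of -0.95 with the pseudocount, missed the 2-fold part of the rule. It was called there under 1 of 4 scalings. Summed over Bcl2a1a, Bcl2a1b and Bcl2a1d, the level was 103 CPM in naive cells, 29.99 in Th0 cells, 12.2 in Th17 cells and 22.2 in Treg cells. The same-strand gene Gm29094 matches Bcl2a1b over 402 bases at 100% identity and was left out of the sum. It had 21, 1, 7 and 0 counts (naive to Treg). The sum was 3.44-fold (3.01 to 3.95) lower in Th0 than in naive and 2.46-fold (2.01 to 3.01) lower in Th17 than in Th0. Myeloid and B cells of the spleen also express A1, and their markers were high in the naive library, as given above.

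Of the pore-forming effectors, Bax had 51.0 CPM in naive cells, 126 in Th0 cells, 104 in Th17 cells and 95.5 in Treg cells. The 3 cultured libraries lay above naive, Th0 by 2.47-fold (2.23 to 2.73). Bak1 lay between 52.3 and 61.6 CPM and was not called in any comparison. Bak1 shares 614 exon bases with the antisense gene Ggnbp1, which had 425 counts in naive and 28 to 59 in the cultures. Bax shares 192 exon bases with the same-strand gene Gm45808. The counts of both effectors are therefore uncertain. Bok had 5 counts in naive cells, 2 in Th0 cells, 0 in Th17 cells and 1 in Treg cells. By the 95% counting interval, a count of 0 in Th17 allows up to 0.281 CPM. Bax held 81.0% of the summed FPKM of the 3 effectors in naive and 89.8% to 91.1% in the cultures.

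Among the BH3-only genes, Bbc3 and Bcl2l11 were highest in Th0. Bbc3 (chromosome 7, 16309616 to 16318205), which encodes Puma, a protein induced by p53, had 30.7 CPM in naive cells, 163 in Th0 cells, 51.4 in Th17 cells and 48.6 in Treg cells. Th0 alone was high, 5.31-fold (4.74 to 5.97) above naive, with Th17 3.17-fold (2.89 to 3.48) and Treg 3.36-fold (3.04 to 3.71) below it. Bcl2l11 (chromosome 2, 128126038 to 128162547) encodes Bim, which drives the death of activated T cells. It had 69.9 CPM in naive cells, 156 in Th0 cells, 68.4 in Th17 cells and 41.0 in Treg cells. Th0 was again the highest, 2.23-fold (2.05 to 2.43) above naive, while Th17 was 2.28-fold (2.10 to 2.49) and Treg 3.80-fold (3.42 to 4.24) below Th0. With library totals the Bcl2l11 calls of Th0 over naive and of Th17 over Th0 were lost, and the Treg call was met under all 4 scalings. All these ratios share the Th0 library.

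Pmaip1, the gene of Noxa, which antagonises Mcl1, had 128 CPM in naive cells, 81.6 in Th0 cells, 31.0 in Th17 cells and 44.7 in Treg cells. Naive was the highest and Th17 the lowest, with Th17 2.63-fold (2.33 to 2.98) below Th0, and Treg 1.82-fold below Th0 without meeting the size rule. Bmf had 21.2 CPM in naive cells, 7.78 in Th0 cells, 10.1 in Th17 cells and 15.8 in Treg cells, and Th0 was 2.72-fold (2.07 to 3.60) below naive. Its Treg over Th0 log2 ratio of 0.93 met the rule under 2 of 4 scalings. Bik had 8 counts in naive cells, 25 in Th0 cells, 59 in Th17 cells and 50 in Treg cells. It passed the count filter for Th0 over naive only through Th0, so its call there (4.38-fold, 1.92 to 11.2) could only be in that direction. Bad and Bid share exon bases with the antisense genes Gpr137 (77 to 198 counts) and Bcl2l13 (805 to 1185 counts), so their counts are uncertain. Bad lay between 11.8 and 15.1 CPM, and Bid had 30.3 CPM in naive and 13.9 to 15.3 CPM in the cultures. Neither was called in any comparison with TMM, though Bid in Th0 over naive, at a log2 ratio of -0.99, met it under 2 of 4 scalings. Hrk had 1 count in naive and 0 in the cultures.

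With TMM, Bbc3, Bcl2l11 and Casp4 were the 3 members called higher in Th0 than in naive and lower in both Th17 and Treg than in Th0. Only Bbc3 met all of these calls under all 4 scalings. The Casp4 call over naive was met under 2 of 4, and the Bcl2l11 calls of Th0 over naive and of Th17 over Th0 under 3 of 4. Stretches before their listed start sites are shown because these 3 genes share those calls with TMM. Their full order of libraries differs, with Bbc3 lowest in naive and Bcl2l11 and Casp4 lowest in Treg. RefSeq start sites (GRCm38.p6) were listed for 33 of the 35 members, in 46 windows of 300 bases that run from 250 before to 50 after a start. Each window was searched on both strands for 11 short motifs, chosen with the values known. The forkhead (FOXO) motif GTAAACA occurred in windows of these 3 members and of no other. The other listed starts of Bbc3 and Bcl2l11 had no match. The genes were grouped by their values and the motif was 1 of the 11 searched, and a link between motif and levels was not tested. The motif was in 4 of the 46 windows and in 3.65% of the 32851 windows of all genes. The 4 windows hold 3 distinct matches, since both Casp4 windows overlap and contain the same one. The lines give the first 120 bases of the window, from 250 to 131 bases before the start, with the motif or its reverse complement in capitals, at chr7:16310011-16310130 for the second of the 3 Bbc3 starts listed, chr2:128125788-128125907 for the first of 2 Bcl2l11 starts and chr9:5308599-5308718 for the first of 2 Casp4 starts, all on the plus strand.
Bbc3: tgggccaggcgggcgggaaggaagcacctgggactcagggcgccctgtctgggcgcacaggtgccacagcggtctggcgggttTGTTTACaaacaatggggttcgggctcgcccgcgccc
Bcl2l11: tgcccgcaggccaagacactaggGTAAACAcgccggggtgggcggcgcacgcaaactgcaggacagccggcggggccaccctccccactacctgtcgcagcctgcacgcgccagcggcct
Casp4: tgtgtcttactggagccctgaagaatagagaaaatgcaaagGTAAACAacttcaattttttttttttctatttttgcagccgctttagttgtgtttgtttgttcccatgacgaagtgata

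None of the 3 stretches overlaps an annotated exon (GENCODE vM21). The Bbc3 stretch lies inside the Bbc3 gene, between its exons and before an internal start site, and the other two lie outside their genes. The match starts 167 bases before the start site in Bbc3, 227 in Bcl2l11 and 209 in Casp4. A match of 7 letters is a description of the sequence and not a bound site. Of the other motifs, TTGTTTAC overlaps the reverse complement of the FOXO motif. It was in 3 of the 46 windows, of Bbc3 and Casp4, and in 1.23% of all windows. The NF-kB motif was in 7 of the 46 windows (8.46% of all windows). These belonged to 6 members, Bbc3, Bcl2l1, Bmf, Casp4, Hrk and Xiap. The p53 decamer was in 3 of the 46, of Bax, Birc2 and Bmf (8.36% of all windows). CACGTG was in 4 of the 46, of Bax, Bbc3, Casp1 and Ripk3 (7.15%). The remaining motifs were in 2 of the 46 windows each. TGATGCAA (0.895%) and TGANTCA (7.81%) were found for both Bcl2a1 copies. TGACGTCA was found for Birc2 and Cycs (1.79%), TTCNNNGAA for Casp12 and Ripk1 (8.30%), CCGGAAGT for Bcl2l1 and Diablo (3.89%) and TATAAA for Cflar and Xiap (13.6%).

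A ratio of 2 genes within a library does not depend on the scaling between libraries, and 10 such pairs were formed after the values were seen. The FPKM of Bcl2 was 3.69 times that of Bcl2l11 in naive (3.40 to 3.999), 2.01 in Th0 (1.88 to 2.16), 17.3 in Th17 (16.1 to 18.5) and 22.5 in Treg (20.4 to 24.7). Both polarised cultures were high, and the counting intervals of the 4 libraries did not overlap. Bcl2 over Bbc3 was 1.56 in naive cells, 0.359 in Th0 cells, 4.27 in Th17 cells and 3.53 in Treg cells, again with Th0 lowest. Bax over Bcl2 was 3.53 in naive cells, 7.15 in Th0 cells, 1.58 in Th17 cells and 1.85 in Treg cells. The lengths in these FPKM values span 10.03 kb for Bcl2, 15.5 kb for Bcl2l11, 2.89 kb for Bbc3 and 0.869 kb for Bax, so the level of each ratio depends on the authors' gene lengths, while its change between libraries does not.

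**Figure D3:**
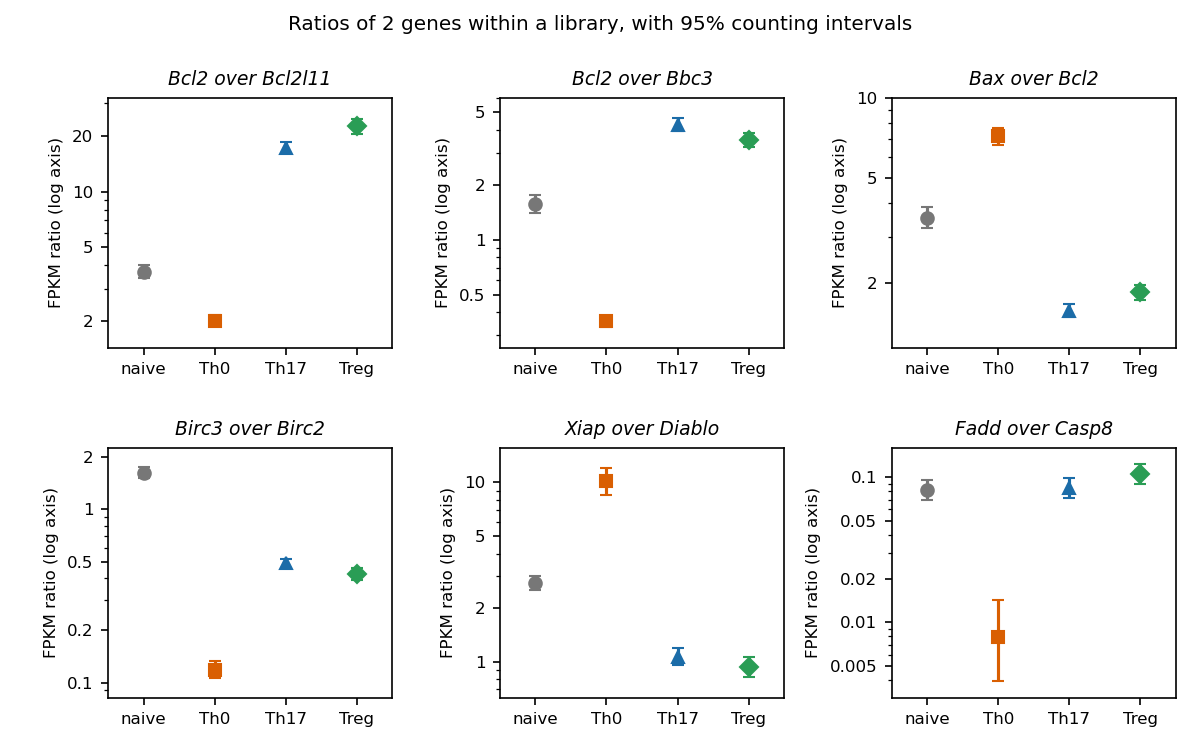
FPKM ratio of 2 genes within each library on a log axis, with 95% counting intervals as bars and 1 library per point. Bcl2 over Bcl2l11 runs from 2.01 in Th0 to 22.5 in Treg, and Fadd over Casp8 drops to 0.00794 in Th0.

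Among the genes of mitochondrial release and the apoptosome, Diablo (chromosome 5, 123509765 to 123525488), which encodes Smac, an antagonist of the caspase inhibitors, was low in Th0 alone. It had 52.0 CPM in naive cells, 17.2 in Th0 cells, 44.8 in Th17 cells and 45.7 in Treg cells. Th0 was 3.03-fold (2.53 to 3.64) below naive, and Th17 and Treg were 2.61-fold (2.18 to 3.14) and 2.66-fold (2.21 to 3.22) above Th0. Diablo shares exons with the antisense gene B3gnt4, which had 0 counts in every library. It also shares 1193 exon bases with the same-strand gene Gm49027, so its counts are uncertain. Apaf1, the scaffold of the apoptosome, had 51.7 CPM in naive cells, 116 in Th0 cells, 135 in Th17 cells and 122 in Treg cells. Naive was low and the cultures lay close together, and Th0 over naive (2.25-fold, 2.03 to 2.48) was called under 3 of 4 scalings. Cycs, the cytochrome c gene, had only 41 to 51 counts in each library, while Gm10053, which matches its transcript over 946 bases at 99.9% identity, had 609 to 1121. Reads of these genes cannot be told apart, so no level of Cycs can be given with certainty.

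The apoptotic caspase genes varied less. Casp8, the initiator of the death receptor route, had 151 CPM in naive cells, 151 in Th0 cells, 153 in Th17 cells and 139.9 in Treg cells and was not called in any comparison. It held 74.2% to 76.4% of the FPKM summed over the 4 apoptotic caspase genes. Casp6, an executioner caspase, had 22.5 CPM in naive cells, 26.1 in Th0 cells, 45.0 in Th17 cells and 21.8 in Treg cells. Th17 alone was high, and at 2.06-fold (1.77 to 2.41) above Treg it was the sole member called between the polarised cultures, under 3 of 4 scalings. Casp2 had 55.8, 79.7, 37.0 and 51.7 CPM (naive to Treg), and its lower call in Th17 than in Th0 (2.16-fold, 1.92 to 2.43) was met under 2 of 4 scalings. Casp9, the caspase that Apaf1 activates, had 31.4 CPM in naive cells, 16.03 in Th0 cells, 24.8 in Th17 cells and 22.8 in Treg cells and was called in no comparison with TMM. Its Th0 over naive log2 ratio of -0.93 met the rule under 2 of 4 scalings, and it shares 94 exon bases with the antisense gene Cela2a, which had 224 counts in naive and 19 in Th0.

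Of the inflammatory caspases, which cleave interleukin-1 family cytokines or the pore protein gasdermin D, Casp1 had 30.5 CPM in naive cells, 7.33 in Th0 cells, 1.75 in Th17 cells and 2.25 in Treg cells. Naive was far above the cultures, and Th0, at 4.17-fold (3.19 to 5.52) below naive, was above Th17 by 4.18-fold (2.56 to 7.05) and above Treg by 3.25-fold (2.02 to 5.39). Casp4 had a different order, with 16.2 CPM in naive cells, 36.4 in Th0 cells, 12.7 in Th17 cells and 8.57 in Treg cells. Here Th0 was highest, with Th17 2.86-fold (2.36 to 3.47) and Treg 4.25-fold (3.37 to 5.40) lower. Its 2.25-fold call over naive was met under 2 of 4 scalings. Casp12 had 7 counts in naive and 0 in each culture, which allows up to 0.229 to 0.343 CPM there. Macrophages express Casp1, and their markers in the naive library are given above.

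The gene of the death receptor adaptor Fadd (chromosome 7, 144577318 to 144582463) had the largest fold among the tested members in each of the 3 comparisons that use Th0. It had 159 counts in naive cells, 11 in Th0 cells, 178 in Th17 cells and 171 in Treg cells, that is 12.98, 1.26, 13.6 and 15.4 CPM. Only Th0 was low, 10.3-fold (5.61 to 21.1) below naive, and Th17 and Treg were 10.8-fold (5.88 to 22.0) and 12.2-fold (6.67 to 25.0) above it. All 3 calls were met under all 4 scalings, but each rests on the 11 counts of the single Th0 library. The antisense gene Faddos, which overlaps Fadd over 239 exon bases, had 0 counts in all 4 libraries. Per length, Fadd over Casp8 was 0.0817 in naive cells, 0.00794 in Th0 cells, 0.0841 in Th17 cells and 0.105 in Treg cells.

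Ripk1, a kinase of the death receptor complex, had 76.0 CPM in naive cells, 29.99 in Th0 cells, 60.3 in Th17 cells and 56.0 in Treg cells. Ripk1 shares exons with the same-strand gene Gm17084 (55, 3, 10 and 5 counts) and the antisense gene Serpinb6a, so its counts are uncertain. Th0 was again lowest, 2.54-fold (2.21 to 2.92) below naive. Th17 and Treg were 2.01-fold and 1.87-fold above Th0 and met the rule under 2 of 4 scalings each, but not with TMM. Cflar, which encodes the caspase 8 inhibitor cFLIP, had 235 CPM in naive cells, 160.4 in Th0 cells, 144 in Th17 cells and 142 in Treg cells and was not called. Of the necroptosis genes, Ripk3 had 43.9, 28.3, 48.2 and 45.5 CPM (naive to Treg) and was called in no comparison with TMM. Mlkl, the pore protein of necroptosis, had 4.90 CPM in naive and 12.0 to 13.5 CPM in the cultures, with Th0 2.76-fold (2.004 to 3.83) above naive.

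The 3 genes of inhibitor of apoptosis proteins each had their own pattern. Xiap (X chromosome, 42059679 to 42109656), which encodes a direct caspase inhibitor, had 148 CPM in naive cells, 181 in Th0 cells, 49.8 in Th17 cells and 44.3 in Treg cells. The polarised cultures were low, Th17 3.64-fold (3.32 to 3.995) and Treg 4.09-fold (3.70 to 4.54) below Th0. Birc2 (cIAP1), a ubiquitin ligase of TNF receptor signalling, had 103, 422.5, 274 and 227 CPM (naive to Treg). It was 4.09-fold (3.84 to 4.36) higher in Th0 than in naive, and its values in Th17 and Treg lay between those of naive and Th0. Birc3 (cIAP2), an NF-kB target that lies beside Birc2 on chromosome 9, had 142 CPM in naive cells, 42.2 in Th0 cells, 112 in Th17 cells and 80.9 in Treg cells. Th0 was the lowest, 3.36-fold (3.00 to 3.77) below naive, and Th17 was 2.66-fold (2.37 to 2.99) above it. Treg over Th0 was 1.91-fold (1.69 to 2.17), which met the rule under 2 of 4 scalings.

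The neighbours Birc2 and Birc3 therefore differed in opposite directions between naive and Th0. Birc3 over Birc2 per length was 1.63 in naive (1.52 to 1.76), 0.119 in Th0 (0.106 to 0.132), 0.488 in Th17 and 0.424 in Treg. Xiap over Diablo, the inhibitor over its antagonist, was 2.74 in naive, 10.1 in Th0 (8.57 to 12.1), 1.07 in Th17 and 0.930 in Treg. Th0 was the extreme library in both ratios, but not in every pair formed. Bcl2 over Mcl1 was lowest in naive (0.0858) and highest in Th17 (0.559), with 0.131 in Th0. Cflar over Casp8 was highest in naive (0.322) and lowest in Th17 (0.194), with 0.220 in Th0. Bcl2 over Bcl2l1 (4.72) and Ripk3 over Mlkl (3.21) were lowest in Th0. With TMM, 3 members (Bbc3, Bcl2l11 and Casp4) were highest in Th0 with calls on every side, and Diablo and Fadd were lowest there with calls on every side. Some of these calls were lost under other scalings for Bcl2l11 and Casp4, but not for Bbc3, Diablo and Fadd.

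Further genes of the pathways were read from 6 lists, of whose 97 genes 95 were in the table, and up to 4 per list are named. The counts stand against 18.5% higher and 27.2% lower over all genes for Th0 over naive, 20.1% and 12.4% for Th17 over Th0, and 20.2% and 12.0% for Treg over Th0. Of 13 tested genes of p53 and its targets, Th0 had 9 (69.2%) higher and 1 (7.69%) lower than naive, with a median log2 ratio of 1.93 against -0.13 for all genes. Perp, a membrane protein gene and p53 target, had 0.653 CPM in naive cells, 37.5 in Th0 cells, 12.7 in Th17 cells and 27.1 in Treg cells, and the cell cycle inhibitor gene Cdkn1a had 13.96, 215, 423 and 363 CPM. Zmat3 had 23.8, 290.2, 122 and 120.02 CPM and Phlda3 2.45, 36.7, 55.1 and 65.9 CPM. All 4 were low in naive, and Perp, with 8 counts there, could be called only higher in Th0. In Th17 over Th0 the list had 3 higher and 5 lower of 14, and in Treg over Th0 3 and 3.

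Of the death receptor list, Th0 had 3 of 17 (17.6%) higher and 5 (29.4%) lower than naive, near the shares over all genes (median 0.07), 2 and 2 in Th17 than in Th0 (median -0.46) and 4 and 3 in Treg than in Th0 (median -0.18). The death receptor gene Fas had 24.6 CPM in naive cells, 191 in Th0 cells, 46.6 in Th17 cells and 49.1 in Treg cells, so Th0 was high as for Bbc3. Tnfrsf10b, the receptor for TRAIL, had 4.33 CPM in naive and 48.4 to 55.02 CPM in the cultures, while Tnfsf10, the gene of TRAIL, had 33.5, 5.04, 5.79 and 15.3 CPM. Tnf had 21.4 CPM in naive cells, 4.58 in Th0 cells, 43.1 in Th17 cells and 33.7 in Treg cells, with Th0 lowest as for Fadd.

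In the list of BH3-only and Bcl2 regulators, Th0 had 6 of 15 (40.0%) higher and 2 (13.3%) lower than naive, 2 and 3 in Th17 than in Th0, and 0 and 5 in Treg than in Th0 (medians 0.46, -0.00 and -0.28). Ddit3, which encodes the stress factor CHOP, had 22.7 CPM in naive cells, 205 in Th0 cells, 87.8 in Th17 cells and 59.0 in Treg cells. The repressor gene Bcl6 had 69.2, 127, 18.6 and 11.2 CPM, Stat5a 101, 369.05, 369 and 244 CPM and the kinase gene Pim2 37.7, 179, 244 and 86.2 CPM. Ddit3 and Bcl6 were highest in Th0, and Pim2 was higher in Th17 than in Treg.

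Inflammasome genes were called lower in Th0 than in naive in 11 of 15 cases (73.3%), with 1 higher (median -1.70), beside the macrophage and neutrophil markers given above, whose part was not tested. Of the 11, 7 reached 10 counts only in naive of this pair and could be called only lower. Il1b had 154 CPM in naive and 1.26 to 4.06 in the cultures, Nlrp3 22.5 and 0.114 to 3.20 CPM, and Mefv and Il18 had 0 counts in Th0 and 32.1 and 15.4 CPM in naive. In Th17 over Th0 the list had 2 higher and 4 lower of 10 tested, and in Treg over Th0 3 and 2 of 12. In each pair 1 of these higher calls came from a gene that reached 10 counts only in the polarised culture and could be called only higher. The execution list had 3 higher (20.0%) and 2 lower (13.3%) of 15 in Th0 over naive, 2 and 0 in Th17 over Th0 and 3 and 0 in Treg over Th0. Dffa, the inhibitor of the apoptotic nuclease, had 38.1, 9.39, 40.4 and 34.9 CPM (naive to Treg), and Endog 7.02, 3.66, 12.8 and 9.11 CPM. Xaf1 had 50.3, 2.86, 3.20 and 7.30 CPM, and the outer membrane channel gene Vdac1 79.5, 251, 206 and 175 CPM. Dffa and Endog were lowest in Th0, as were Diablo and Fadd.

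Of the further Bcl2 family and caspase genes, Th0 had 2 of 14 (14.3%) higher and 5 (35.7%) lower than naive, 3 of the 5 with 10 counts only in naive, 2 and 2 of 14 in Th17 than in Th0, and 2 and 1 of 15 in Treg than in Th0. Of the 2 higher in Treg, 1 (Bcl2a1a, with 3 counts in Th0) reached 10 counts only in Treg of this pair. Bnip3, a mitophagy receptor gene induced by low oxygen, had 6.61 CPM in naive cells, 11.9 in Th0 cells, 124 in Th17 cells and 45.5 in Treg cells, and was called higher in Th17 than in Treg. Naip2, Naip5 and Naip6, sensors of bacterial proteins, had 35.0 to 41.7 CPM in naive and at most 7.09 CPM in any culture. Between Th17 and Treg the 6 lists held 1 and 0, 0 and 2, 0 and 1, 0 and 0, 1 and 0, and 1 and 0 higher and lower calls, in the order further Bcl2 family, death receptors, p53, execution, inflammasome and regulators.

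**Figure D4:**
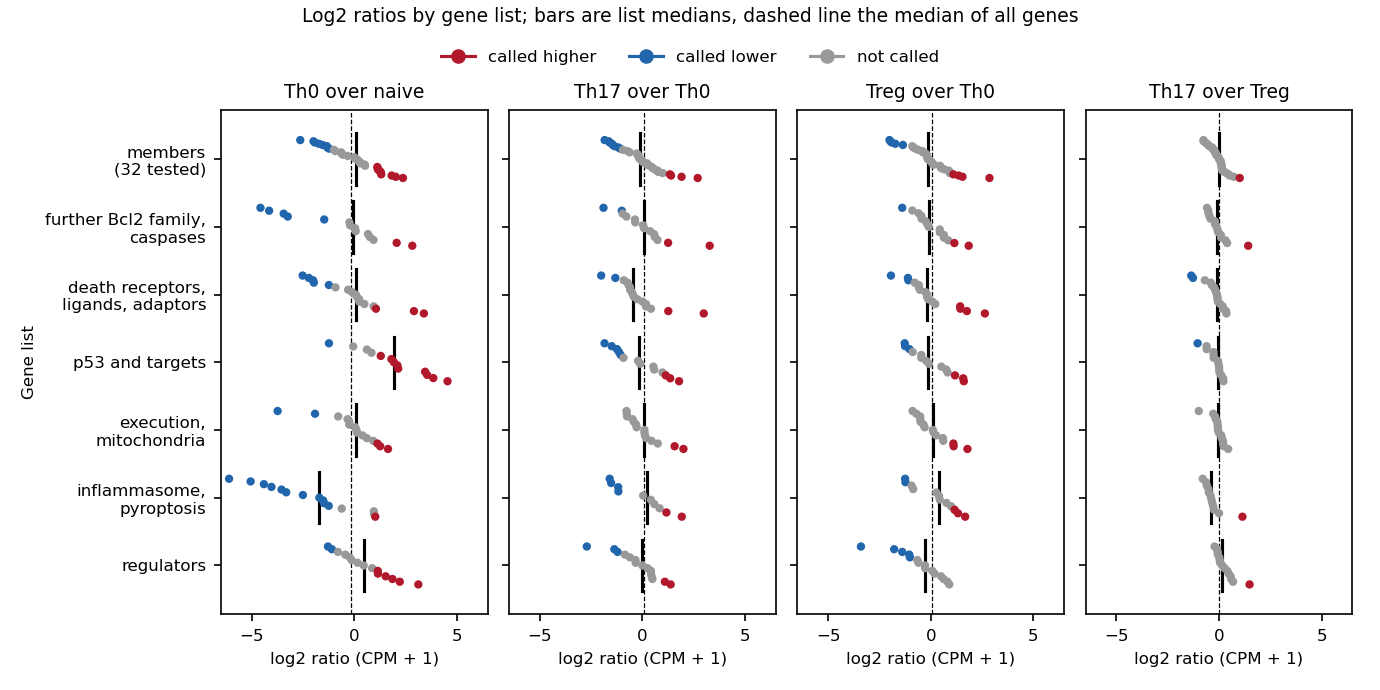
Log2 ratio of CPM + 1 for each tested gene of the members and of the 6 further lists, in the 4 comparisons. Points are genes (red called higher, blue lower, grey neither), bars list medians and the dashed line the median of all tested genes. The p53 list has a median of 1.93 in Th0 over naive and -0.16 in Th17 over Th0.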

How the data were processed

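The members and gene lists were chosen with earlier results of these data known. Per the file headers, the deposited table holds raw counts per gene, which are whole numbers, and the authors' FPKM for each of 4 libraries. The submitters' processing notes name Bowtie2 and RSEM, and GRCm38.p6 and mm10 as builds, with no role stated. The sources used here give neither strandedness nor read length, so overlapping and antisense genes cannot be told apart. Library totals were 11901949, 10272122, 12414372 and 10256627 counts (naive, Th0, Th17, Treg), so 3 counts were worth 0.245, 0.343, 0.229 and 0.271 CPM, the limit that a count of 0 allows.

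The deposited FPKM equalled count over length and total with 1 length per gene in all 8988 genes that reached 50 counts in every library (tolerance 0.1%). Counts were scaled by TMM (edgeR 4.0.16, R 4.3.3) over genes with at least 10 counts in some library, with factors 1.03, 0.850, 1.06 and 1.08 in the order above. A gene was tested with at least 10 counts in 1 of the 2 libraries. Intervals are 95% exact (Clopper-Pearson) intervals of the count ratio. The size rule was tested on simulated data. The simulated counts varied by counting error only, so that test cannot show whether a call would recur in another culture or animal. Given in all 4 libraries were 22 members with at least 10 CPM in some library and a call in some comparison, which entered the alternatives, and, beside them, the highest member of each role. Up to 4 genes per further list were named, by largest absolute log2 ratio. Copies were found with minimap2 (at least 300 nt at 95% identity), and promoters came from RefSeq. Other scalings (library totals, upper quartile, DESeq2 1.42.0 size factors), pseudocounts, filters, folds and FPKM were tried. Python 3.11.15 with scipy 1.17.1 and matplotlib 3.10.9 did the rest.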

Additional observations from a re-analysis of the deposited data

How the results depend on the processing

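Counts of members called higher in Th0 over naive became 5 with the authors' FPKM and 3 at 3-fold, from 10, and those called lower 4 at 3-fold, from 8. For Th17 over Th0 the 4 higher calls became 7 with library totals, 8 at 1.5-fold and 2 at 3-fold, and the 8 lower calls 5 with FPKM and 3 at 3-fold. For Treg over Th0 the 4 higher calls became 8 with library totals, 7 with upper quartile factors, 8 at 1.5-fold and 1 at 3-fold, and the 5 lower calls 9 at 1.5-fold. For Th17 over Treg the 1 higher call, Casp6, became 0 with library totals, a pseudocount of 5 CPM, FPKM or 3-fold and 2 at 1.5-fold, and the 0 lower calls became 4 at 1.5-fold. The 1.5-fold and 3-fold settings change the counts by their construction, and for the others the cause was not tested. Other counts stayed within 1.5 times, including those with TMM factors taken without the naive library, a setting chosen after seeing the data. Of 770 alternative log2 ratios of the 22 named members, 730 stayed as they were, whether called or not called. A call was lost in 24 and gained in 16, and no called ratio changed sign. The 730 include ratios that had no call to lose. No paired analysis was possible because each group has 1 library.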
